A study of Mus musculus with 36 samples.

Results

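The genes described here build and cap the sugar chains of mucins and of other glycoproteins and glycolipids. They were taken by name, as all genes on the arrays whose annotated symbol begins with Galnt, Gcnt, B3galt, B3gnt, B4galt, St3gal, St6gal (with St6galnac), St8sia, Fut or Chst followed by a number or letter. This rule found 73 of the 15964 genes with a single annotated symbol. Of these, 72 were enzyme genes and 1 was Galnt6os, an antisense RNA of Galnt6. They had 135 probe sets, and each gene was represented by its brightest probe set on the first of array sets A, B and C that carried it, which placed 44 genes on A, 20 on B and 9 on C. The families held 14 Galnt, 3 Gcnt, 5 B3galt, 5 B3gnt, 7 B4galt, 6 St3gal, 1 St6gal, 6 St6galnac, 6 St8sia, 8 Fut and 11 Chst genes.

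RNA was measured in whole segments of colon, ileum, jejunum and duodenum from 8-week-old male mice of the outbred CD-1 stock (Hsd:ICR(CD-1)) on standard chow, and the labels name no treatment or engineered allele. Each segment had 3 samples, each a pool of 10 mice, and every pool was measured on the 3 array sets, which made 36 arrays. The colon was kept undivided, the ileum was taken next to the caecum, the jejunum came from the middle of the small intestine, and the duodenum was its first 2 to 3 cm. Because whole segments were used, epithelium, muscle, nerves and immune cells all contributed RNA.

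Mucin-type O-glycans are started in the Golgi by Galnt enzymes, which attach N-acetylgalactosamine to serine or threonine. The sugar is extended to core structures by C1galt1 and the branching Gcnt enzymes, lengthened by galactosyltransferases (B3galt, B4galt) and N-acetylglucosaminyltransferases (B3gnt), and ended by sialic acid, fucose or sulfate. Such chains make up most of the mass of intestinal mucins, and the ends of the chains are ligands for lectins and food for gut bacteria.

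All values are scaled array intensities, and differences are of log2(intensity + 16), which compresses the changes of dim genes. The median intensity was 66.3 for array set A, 100.6 for set B and 94.8 for set C, and it serves here as a mark for dim probe sets. On the representing probe sets the mean of the highest segment was above that median for 50 genes, all 4 segment means were above it for 27, and none was for the other 23, of which 7 had another probe set above its median. Markers of the segments were high where the labels place them. Of 7 measured colon epithelial markers 4 were higher in colon than in the small intestine, all 4 ileal markers were higher in ileum than in jejunum, and all 4 duodenal markers were lower in jejunum than in duodenum. All 7 epithelial markers lay above the array median in every segment. Jejunum 2 and 3 and ileum 1 and 3 had lower signal for the 18S ribosomal RNA controls, with 80.1 to 684.5 on array set A, against 2712 to 10416 in the other 8 samples. The ratio of 3' to 5' actin signal on array set A was 1.31 to 1.42 in colon, 1.14 to 1.19 in ileum, 1.27 to 1.55 in jejunum and 1.40 to 1.83 in duodenum.

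Most of the genes that differed between segments had their highest mean in colon. In limma's test across all probe sets with Benjamini-Hochberg adjustment, 13 of the 73 genes (17.8%) differed among the 4 segments at an adjusted p below 0.05, beside 13.7% of all 15964 genes. The colon had the highest mean for 11 of these 13 and the ileum for 2, and the matching share among all called genes was not counted. The 11 include B4galt4, with means of 682 in colon and 672 in ileum. It was not called in colon against all small intestine (adjusted p = 0.108). Of all 73 genes, called or not, 36 were highest in colon, 14 in ileum, 6 in jejunum and 17 in duodenum. The share over all 15964 genes was not counted. In colon set against all small intestine (the mean over ileum, jejunum and duodenum), 12 genes were higher and 1 was lower, beside 6.92% of all genes higher and 4.96% lower. The median difference was 0.24 over the 73 genes and 0.05 over all genes. All 3 colon pools lay above all 9 small-intestinal pools for 12 genes (6.77% of all genes) and below them for 1 (4.18% of all genes). B4galt2, Chst1 and Chst15 did not overlap and were not called, while Galnt10, St3gal1 and St3gal6 were called and overlapped. In tissue made of many cell types, a larger share of the cells that make an RNA and more of that RNA per cell cannot be told apart. Without colon replicate 2, 8 genes differed among the segments and 7 were called in colon against small intestine. Among the 8 samples with high 18S signal the calls of Galnt3, Galnt7, Galnt10, St3gal1 and St3gal6 in that comparison ended, with adjusted p of 0.0561 for Galnt3, 0.0635 for Galnt7, 0.101 for Galnt10, 0.0602 for St3gal1 and 0.112 for St3gal6.

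**Figure D1:**
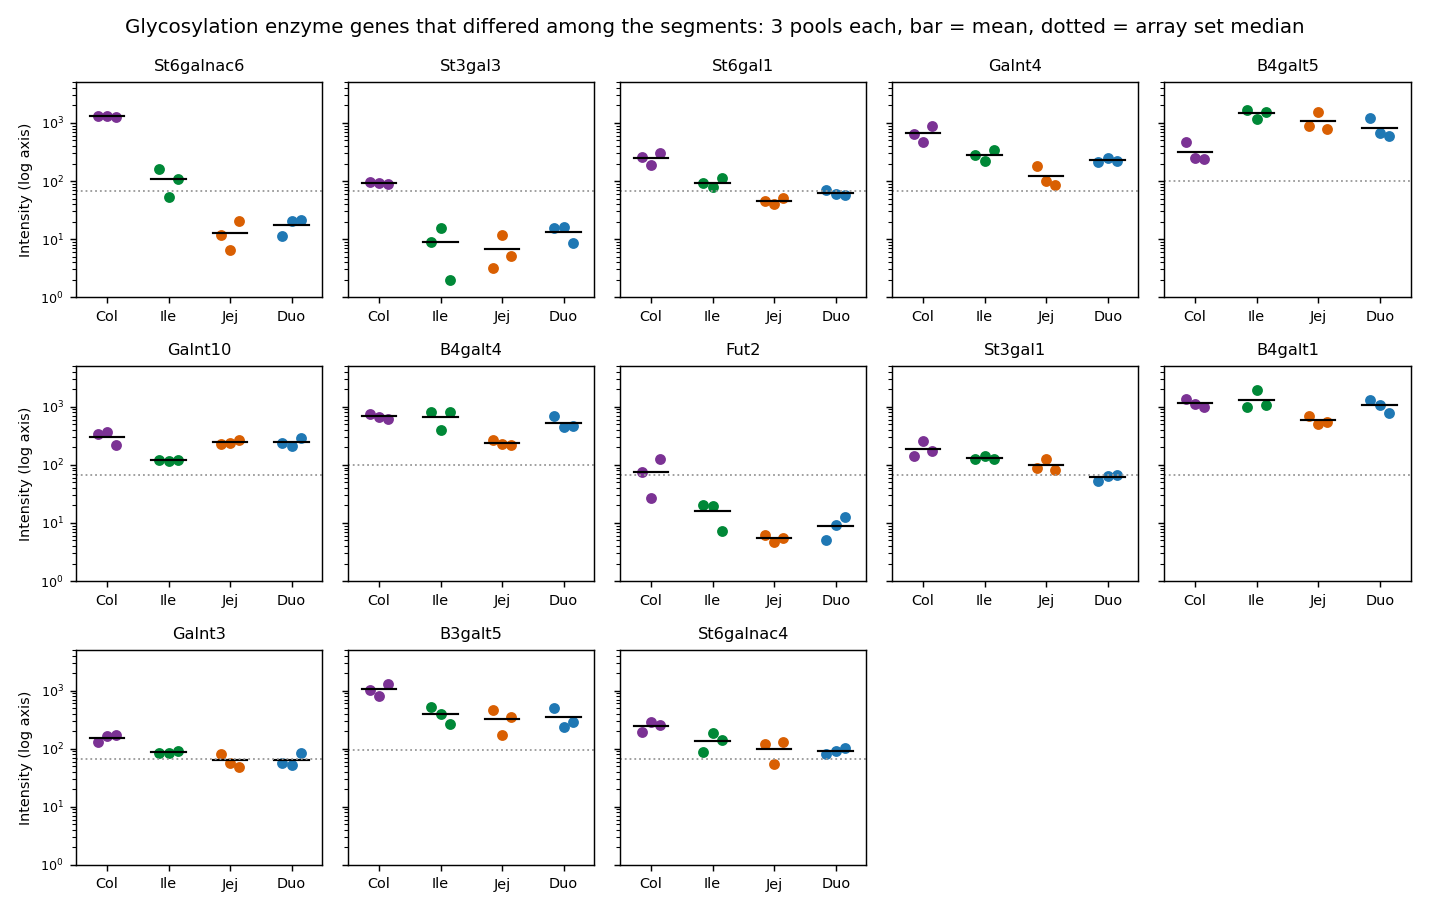
Intensity (log axis) in each of 3 pools of colon, ileum, jejunum and duodenum for the 13 genes that differed among the segments, with a bar at each mean and a dotted line at the array set's median. The 3 colon pools of St6galnac6 lie at 1278 to 1326, above its 9 small-intestinal pools, and B4galt5 is the gene whose colon pools lie below all others.

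Of the chain-starting Galnt enzymes, 4 of 14 were higher in colon than in the small intestine on their representing probe sets and none was lower. Among all genes, 6.92% were higher and 4.96% lower there. Galnt4, which adds N-acetylgalactosamine to peptides that already carry some, had intensities of 654, 461 and 897 in the colon pools, 286, 218 and 341 in ileum, 178, 102 and 85.7 in jejunum and 216, 249 and 221 in duodenum. All 3 colon pools lay above the 9 others, and the jejunal pools were the lowest. The colon minus small intestine difference of Galnt4 was 1.65 ± 0.22 (SE, adjusted p = 0.000152). On a second, dimmer probe set of Galnt4 the colon pools also lay above the others. The difference there, 0.62 ± 0.22 (SE, adjusted p = 0.115), did not pass. Galnt3, known in mouse and human for protecting the hormone Fgf23 from cleavage, had 132, 166 and 169 in the colon pools, 82.9, 85.9 and 89.7 in ileum, 82.2, 57.3 and 49.2 in jejunum and 56.9, 52.9 and 82.7 in duodenum, a difference of 0.99 ± 0.22 (SE, adjusted p = 0.00891), and its colon pools lay above all others. Galnt7, like Galnt4 an enzyme that prefers partly glycosylated peptides, had 211, 281 and 269 in the colon pools, 185, 109.9 and 119.6 in ileum, 103, 106 and 118 in jejunum and 146, 74.3 and 71.6 in duodenum, a difference of 1.08 ± 0.28 (SE, adjusted p = 0.0252), and its colon pools also lay apart. The brightest probe set of Galnt7, on array set C, was flat, with means of 961 in colon, 996 in ileum, 939 in jejunum and 926 in duodenum and a difference of 0.01 ± 0.20 (SE, adjusted p = 0.993), so its probe sets disagreed.

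Galnt10 followed another order, with 335, 362 and 224 in the colon pools, 123, 118 and 119 in ileum, 230.2, 242 and 264 in jejunum and 242, 212 and 292 in duodenum. Its 3 ileal pools were the lowest of the 12 and lay close together, while the colonic, jejunal and duodenal pools overlapped. Galnt10, also a peptide N-acetylgalactosaminyltransferase, was higher in colon than in ileum by 1.22 ± 0.21 (SE, adjusted p = 0.00238), and in colon against all small intestine by 0.59 ± 0.17 (SE, adjusted p = 0.045). Its brightest probe set, on array set B, passed in neither, with 0.63 ± 0.24 (SE, adjusted p = 0.233) against ileum and 0.44 ± 0.19 (SE, adjusted p = 0.235) against all small intestine. Galnt1 and Galnt2, the broadly expressed members of the family, did not pass any test. Galnt2, the brightest of the family on its representing probe set, had 419.6, 443 and 379 in the colon pools, 408, 562 and 452 in ileum, 438, 378 and 308 in jejunum and 424, 506 and 457 in duodenum, with overlap between the segments and an adjusted p of 0.593 for any difference. Galnt1 averaged 297 ± 4.26 in colon, 359 ± 54.3 in ileum, 258 ± 53.1 in jejunum and 299.8 ± 71.6 in duodenum (SD, n = 3, as for all means given with ± below). Galnt6 averaged 209 in colon, 281 in ileum, 275 in jejunum and 341 in duodenum, a difference of -0.46 ± 0.27 (SE, adjusted p = 0.429). Its brightest probe set, on array set B, averaged 2425 in colon, 3274 in ileum, 3911 in jejunum and 3531 in duodenum. There the colon pools lay below all others, and the difference of -0.52 ± 0.19 (SE, adjusted p = 0.141) did not pass. Over the 14 Galnt genes the median of the colon minus small intestine difference was 0.40.

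Several of these calls ended when a single sample was left out. Without colon replicate 2 the adjusted p was 0.0655 for Galnt3 and 0.143 for Galnt7, without colon replicate 3 it was 0.0749 and 0.137, and without colon replicate 1 it was 0.0636 for Galnt7. Galnt10 in colon against all small intestine passed in the full set of samples only by a small margin, and its adjusted p lay between 0.0534 and 0.282 when colon 1 or 2, any ileal pool, jejunum 1 or 2, or duodenum 1 or 2 was left out.

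The branching enzymes gave a mixed picture. Gcnt3, which makes core 2 and core 4 branches in mucus-secreting epithelium, had 1955, 2241 and 4282 in the colon pools, 1420.2, 1558 and 2065 in ileum, 1002, 2061 and 2153 in jejunum and 2060.0, 1561 and 959 in duodenum on the probe set that represents it. The colon pools overlapped with the small-intestinal ones, and the colon minus small intestine difference of 0.74 ± 0.32 (SE, adjusted p = 0.224) did not pass. A second, dimmer probe set of Gcnt3 on the same array set had 1619, 2518 and 3740.2 in the colon pools, 376, 467 and 712 in ileum, 100.3, 364 and 304 in jejunum and 503, 458 and 422 in duodenum. There all 3 colon pools lay above the 9 others, with a difference of 2.68 ± 0.36 (SE, adjusted p = 0.000226). The probe sets of Gcnt3 thus disagreed in size and call, though both differences were positive. Gcnt1, the core 2 enzyme of many tissues, averaged 144 ± 13.8 in colon, 101 ± 42.6 in ileum, 101 ± 24.8 in jejunum and 136 ± 36 in duodenum, and Gcnt2, which branches the I antigen, averaged 14.4 ± 8.11 in colon, 14.5 ± 13 in ileum, 8.93 ± 0.68 in jejunum and 7.63 ± 2.00 in duodenum on its representing probe set, under the array median in every segment. A brighter probe set of Gcnt2 on array set C averaged 409.7 in colon, 468 in ileum, 344 in jejunum and 459 in duodenum, and neither passed.

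C1galt1 and its chaperone C1galt1c1, which make core 1 and fall outside the naming rule, did not pass in any test. C1galt1 averaged 220.5 ± 18.7 in colon, 136 ± 39.6 in ileum, 137 ± 45.3 in jejunum and 144 ± 50.6 in duodenum, with an adjusted p of 0.228 for colon against small intestine. C1galt1c1 was dim throughout, at 18.9 in colon, 17.3 in ileum, 21.4 in jejunum and 22.6 in duodenum.

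Among the chain-lengthening enzymes, B3galt5 was higher and B4galt5 lower in colon. B3galt5, which makes type 1 chains in gut epithelium, had 1009, 819 and 1320.2 in the colon pools, 513, 402 and 271 in ileum, 466, 175 and 346 in jejunum and 501, 240.1 and 294 in duodenum, with no overlap between colon and the rest. Its colon minus small intestine difference was 1.56 ± 0.32 (SE, adjusted p = 0.00738), and without colon replicate 3 it was 1.39 (adjusted p = 0.0662). Without the array of duodenum 3 on set C, whose source name says jejunum, its adjusted p for any difference was 0.0537, against 0.0347 with it. B4galt5, a galactosyltransferase that also makes lactosylceramide in mouse, had 462, 249 and 243 in the colon pools, 1666, 1181 and 1527 in ileum, 871, 1549 and 778 in jejunum and 1202, 662 and 587 in duodenum. All 3 colon pools lay below all 9 others, and the small-intestinal segments overlapped. B4galt5 fell by 1.73 in colon against small intestine (SE 0.26, adjusted p = 0.000363), and by 2.19 against ileum (adjusted p = 0.000508). Its other probe set was dim, with means of 58.6 in colon, 78.4 in ileum, 75 in jejunum and 69.5 in duodenum, and showed no such difference (adjusted p = 0.819).

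B4galt1 and B4galt4 were lowest in the jejunal pools on their representing probe sets. B4galt1, the main galactosyltransferase of N-glycans, had 1358, 1120.5 and 986 in the colon pools, 978, 1951 and 1065 in ileum, 698, 507 and 542 in jejunum and 1329, 1088 and 796 in duodenum. The jejunal pools lay below all 9 others, and the other segments overlapped. It was higher in ileum than in jejunum by 1.11 ± 0.25 (SE, adjusted p = 0.027). B4galt4, known for extending sulfated chains, had 745, 675 and 627 in the colon pools, 800.2, 392 and 823 in ileum, 263, 229.5 and 221 in jejunum and 689.8, 451 and 465 in duodenum, again with the jejunal pools lowest. Its ileum minus jejunum difference was 1.37 ± 0.27 (SE, adjusted p = 0.0126). A brighter probe set of B4galt4 on array set C averaged 1239 in colon, 1017 in ileum, 753 in jejunum and 1289 in duodenum, and there the ileal and jejunal pools overlapped and the difference was 0.37 ± 0.29 (SE, adjusted p = 0.674). Neither gene passed in colon against small intestine, with differences of 0.32 ± 0.20 (SE, adjusted p = 0.485) for B4galt1 and 0.64 ± 0.22 (SE, adjusted p = 0.108) for B4galt4.

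The other lengthening enzymes did not pass on their representing probe sets. B3gnt7, which extends sulfated chains of the keratan sulfate type, had 3599.7, 3929 and 3011 in the colon pools, 2626, 3064 and 2475 in ileum, 2590.0, 2744 and 3101 in jejunum and 3734, 3911 and 2549 in duodenum. Its segments overlapped, with an adjusted p of 0.684 for any difference. B3gnt5, the starting enzyme of lacto-series glycolipids, averaged 233 ± 67.4 in colon, 110.5 ± 42.7 in ileum, 114 ± 15.8 in jejunum and 58.5 ± 67 in duodenum, with a colon minus small intestine difference of 1.32 ± 0.42 (SE, adjusted p = 0.0721). B3gnt3, a core 1 extending enzyme, averaged 295 ± 48.7 in colon, 297 ± 32 in ileum, 369 ± 91 in jejunum and 399 ± 96 in duodenum. A second probe set of B3gnt2, a polylactosamine synthase, was higher in colon with means of 173 in colon, 38.9 in ileum, 14 in jejunum and 67.6 in duodenum and a difference of 1.94 ± 0.38 (SE, adjusted p = 0.00384), while the representing one averaged 100.3 in colon, 38.3 in ileum, 75.6 in jejunum and 81.2 in duodenum (adjusted p = 0.455). One probe set of B3galt1 on array set C was high in duodenum alone, with 39.7, 30.6 and 36.1 in the colon pools, 29.7, 34.4 and 36.7 in ileum, 22.5, 24.3 and 28.9 in jejunum and 182, 95.1 and 143 in duodenum. It was lower in jejunum than in duodenum by -1.88 ± 0.33 (SE, adjusted p = 0.0138), while the representing probe set of B3galt1 was dim in all segments, at 11.9 in colon, 12.3 in ileum, 8.33 in jejunum and 19.2 in duodenum, and a brighter one on C overlapped between segments, at 808 in colon, 699 in ileum, 701 in jejunum and 979 in duodenum. The brightest probe set of B4galt6, a lactosylceramide synthase, was lower in colon, with 535, 758 and 722 in the colon pools, 1328, 863 and 1582 in ileum, 1166, 1455 and 796 in jejunum and 1366, 1250.0 and 1063 in duodenum and a difference of -0.81 ± 0.21 (SE, adjusted p = 0.0238). All 3 colon pools lay below the other 9 there, and also on a dimmer one that did not pass (adjusted p = 0.114), while the representing probe set averaged 103 in colon, 139.6 in ileum, 109.9 in jejunum and 93.7 in duodenum (adjusted p = 0.915).

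The sialyltransferases held 6 of the 12 genes that were higher in colon. These enzymes transfer sialic acid in alpha2,3 linkage (St3gal), in alpha2,6 linkage to galactose (St6gal1) or to N-acetylgalactosamine (St6galnac), or onto another sialic acid (St8sia). Higher in colon were 3 of 6 St3gal genes, the 1 St6gal gene, 2 of 6 St6galnac genes and none of the 6 St8sia genes. Over all genes, 6.92% were higher there. St6galnac6, which makes alpha2,6-disialylated glycolipids and glycans in mouse and human, and St6galnac4, which adds alpha2,6-linked sialic acid to the sialylated core 1 chain, are direct neighbours among the protein-coding genes of chromosome 2. Both were higher in colon, so the 250 bases before their starts are shown from the RefSeq promoter table (GRCm38.p6, plus strand, chr2:32599459-32599708 for St6galnac6 and chr2:32586828-32587077 for St6galnac4). Capitals mark the letters GGGCGG, the GC box of Sp factors, and TTTAT, the core letters of sites of Cdx homeobox factors. The search covered the plus and minus strands and counted overlapping matches.
St6galnac6: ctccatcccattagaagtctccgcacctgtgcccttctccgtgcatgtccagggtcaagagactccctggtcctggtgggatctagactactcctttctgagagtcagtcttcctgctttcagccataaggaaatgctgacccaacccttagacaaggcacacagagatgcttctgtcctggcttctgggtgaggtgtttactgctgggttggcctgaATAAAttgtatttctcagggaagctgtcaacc
St6galnac4: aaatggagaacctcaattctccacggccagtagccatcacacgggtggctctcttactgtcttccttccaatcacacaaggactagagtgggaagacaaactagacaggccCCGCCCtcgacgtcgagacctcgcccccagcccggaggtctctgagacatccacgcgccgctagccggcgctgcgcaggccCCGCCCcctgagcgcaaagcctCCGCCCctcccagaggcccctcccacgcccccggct

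The windows of these neighbours differed in letters. The St6galnac6 window held 51.6% G and C, no GC box and 1 match to TTTAT on the minus strand, which begins 32 bases before the start. The St6galnac4 window held 65.2% G and C, 3 GC boxes on the minus strand beginning 139, 58 and 36 bases before the start, and no TTTAT. A GC box occurred in 32.9% of 27025 gene promoters in the table and in 36 of the 57 glycosylation genes with an entry. TTTAT occurred in 38.1% of all promoters and in 10 of the same 57. Of the 9 genes higher in colon that had an entry, 4 held GGGCGG and 4 held TTTAT in the promoter that the RefSeq table lists first for the gene.

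St6galnac6 had the widest range over segments of the 73 genes, with 1326, 1307 and 1278 in the colon pools, 164, 53.8 and 108 in ileum, 11.6, 6.4 and 20.2 in jejunum and 11.2, 20.1 and 21.4 in duodenum. The colon pools lay within a narrow band above everything else, the ileal pools came next and did not overlap with any other segment, and the jejunal and duodenal pools overlapped under the array median. The colon minus small intestine difference was 4.79 ± 0.27 (SE, adjusted p = 9.41e-09). A second probe set on array set B had 949.5, 840.4 and 787 in the colon pools, 238, 96.2 and 265 in ileum, 63.5, 33.7 and 41.3 in jejunum and 19.2, 32.3 and 51.7 in duodenum, with the same order of colon over ileum over the rest and a difference of 3.38 ± 0.32 (SE, adjusted p = 2.98e-06). St6galnac4 had 194, 289.8 and 251 in the colon pools, 86.9, 183 and 141 in ileum, 118, 53.9 and 129 in jejunum and 79.9, 92.9 and 102 in duodenum, with colon above all other pools and a difference of 1.10 ± 0.26 (SE, adjusted p = 0.0134). Without colon replicate 2 the adjusted p of St6galnac4 was 0.104, without colon replicate 3 it was 0.0782, and its brightest probe set over all array sets, on B, was flat with a difference of 0.05 (adjusted p = 0.951).

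St6gal1 is the enzyme that caps N-glycans with alpha2,6-linked sialic acid. Its intensities were 262, 192 and 300.1 in the colon pools, 92.1, 79.3 and 111 in ileum, 46.2, 40.8 and 50.9 in jejunum and 69.8, 58.9 and 58.3 in duodenum. Colon lay above all others, ileum lay above jejunum and duodenum without overlap, and jejunum lay lowest. The colon minus small intestine difference was 1.70 ± 0.21 (SE, adjusted p = 5.58e-05) and the colon minus ileum difference 1.27 ± 0.25 (SE, adjusted p = 0.00953). A second probe set on array set A was also higher in colon, by 1.40 ± 0.34 (SE, adjusted p = 0.0185), while a dim one on C was not (-0.01, adjusted p = 0.992). The order within the small intestine was not the same on the second array A probe set. There the ileal pools overlapped with the jejunal ones, and duodenum had the lowest mean, 19.7 against 37 in jejunum.

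St3gal1 and St3gal3 also were higher in colon. St3gal3, which sialylates N-glycans and type 1 chains, had 97.2, 93.6 and 87.9 in the colon pools, 9.0, 15.7 and 2.0 in ileum, 3.2, 11.9 and 5.1 in jejunum and 15.7, 16 and 8.6 in duodenum. Only the colon pools lay above the array median, and the small-intestinal pools lay near the lowest signals, where their order carries little information. The difference was 2.11 ± 0.23 (SE, adjusted p = 1.49e-05). The only other probe set of St3gal3, on array set B, was under the array median in all 4 segment means, at 25.6 in colon, 30.9 in ileum, 15.4 in jejunum and 52.3 in duodenum, and its difference of -0.24 ± 0.44 (SE, adjusted p = 0.862) had the opposite sign. St3gal1, which caps core 1, had 142, 255 and 174 in the colon pools, 125, 144 and 124 in ileum, 88.2, 126 and 82.4 in jejunum and 51.9, 64.9 and 65.9 in duodenum. Duodenum lay below all other pools, and 1 ileal pool lay above the lowest colon pool. The difference was 0.89 ± 0.21 (SE, adjusted p = 0.0157), and a second probe set on B had the same direction with 1.98 ± 0.33 (SE, adjusted p = 0.000997) and no overlap. Without colon replicate 2 the adjusted p of St3gal1 on its representing probe set was 0.167, and without colon replicate 3 it was 0.0646.

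St3gal6, which acts on lactosamine chains, had 280.5, 228 and 169 in the colon pools, 132, 110.2 and 65.3 in ileum, 149, 102 and 90.4 in jejunum and 173, 124 and 158 in duodenum. One duodenal pool lay above the lowest colon pool, and the difference was 0.82 ± 0.23 (SE, adjusted p = 0.0408). Its adjusted p lay between 0.0555 and 0.251 when colon 1 or 2, ileum 3, jejunum 2 or 3, or duodenum 2 or 3 was left out. On array set B the duodenal mean of St3gal6 was above the colon mean, with 607 in colon, 366 in ileum, 392 in jejunum and 682 in duodenum, and the colon minus small intestine difference did not pass (adjusted p = 0.304). Duodenum was also highest on array set C, with 179 in colon, 49.5 in ileum, 170 in jejunum and 308 in duodenum. The colon minus small intestine difference there was 0.44 ± 0.45 (SE, adjusted p = 0.706). St3gal4 averaged 96.5 ± 20.8 in colon, 20.6 ± 8.39 in ileum, 79.7 ± 49.6 in jejunum and 51 ± 23.5 in duodenum and St3gal5, the ganglioside GM3 synthase, averaged 59.9 ± 31.8 in colon, 21.4 ± 7.22 in ileum, 24.4 ± 6.37 in jejunum and 21.4 ± 6.14 in duodenum, and neither passed. St6galnac2 averaged 417 ± 90.8 in colon, 274 ± 52.3 in ileum, 376 ± 81.3 in jejunum and 373 ± 102 in duodenum with overlapping segments. St6galnac1, the sialyl-Tn synthase of goblet cells, was at 3.23 in colon, 6.50 in ileum, 5.90 in jejunum and 7.30 in duodenum on its array A probe set, far under the median, so its pattern was not resolved. None of the 6 St8sia genes, which build polysialic acid and gangliosides, passed a test, and on the representing probe sets only St8sia2 and St8sia5 had a segment mean above the array median. St8sia2, a polysialyltransferase, had 90.8, 81.2 and 73.5 in the colon pools, 71.4, 54 and 102 in ileum, 102, 48 and 66.7 in jejunum and 75, 24.2 and 56.7 in duodenum, with overlap between all segments and an adjusted p of 0.713 for any difference. St8sia1, the ganglioside GD3 synthase, was above the median on a second probe set on C, at 217 in colon, 185 in ileum, 116 in jejunum and 239 in duodenum.

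**Figure D2:**
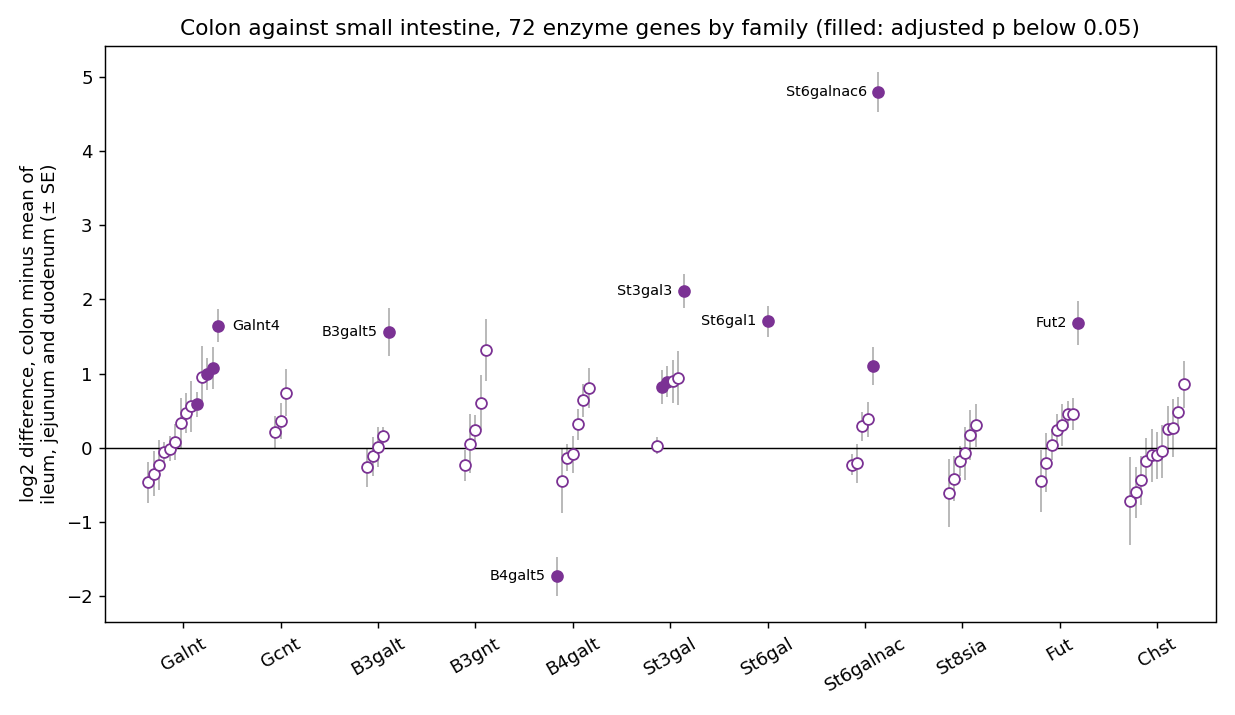
Difference of log2(intensity + 16) between colon and the mean of ileum, jejunum and duodenum (points, with SE bars) for the 72 enzyme genes, ordered within each family and filled where the adjusted p was below 0.05. St6galnac6 lies at 4.79, the other filled points lie between 0.59 and 2.11, and B4galt5 at -1.73 is the filled point below 0.

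Of the 8 fucosyltransferases only Fut2 passed. Fut2, the secretor enzyme that makes the H antigen on mucins, had 74.5, 27.1 and 124 in the colon pools, 20.7, 19.8 and 7.4 in ileum, 6.1, 4.7 and 5.6 in jejunum and 5.0, 9.3 and 12.8 in duodenum. All 3 colon pools lay above the other 9, but spread widely, and the small-intestinal pools lay far under the array median. The colon minus small intestine difference was 1.68 ± 0.29 (SE, adjusted p = 0.00163). The second probe set of Fut2, on array set C, was above its median and flat, with means of 175 in colon, 214 in ileum, 169 in jejunum and 144 in duodenum and a difference of 0.03 ± 0.28 (SE, adjusted p = 0.974), so the probe sets of this gene disagreed. Fut8, which fucosylates the core of N-glycans, averaged 136 ± 11.7 in colon, 82.5 ± 12.2 in ileum, 96.1 ± 29.4 in jejunum and 110.1 ± 20.4 in duodenum, Fut4, which makes Lewis x type ends, averaged 123 ± 11.6 in colon, 91.1 ± 23.3 in ileum, 113 ± 34.4 in jejunum and 107 ± 8.77 in duodenum, and neither passed. A brighter probe set of Fut4 on array set B averaged 414 in colon, 242 in ileum, 160 in jejunum and 474 in duodenum. There the ileal and jejunal pools lay below the duodenal ones, with an adjusted p of 0.0753 for any difference. Fut11, the brightest fucosyltransferase gene, had 354, 305 and 207 in the colon pools, 304, 269.8 and 268 in ileum, 326, 125 and 244 in jejunum and 261, 198 and 124 in duodenum, with wide overlap and an adjusted p of 0.665 for any difference. Fut1 and Fut10 stayed under the array median in every segment, as did Fut9 on its representing probe set, while another Fut9 probe set on B averaged 101 in colon, 103 in ileum, 78.5 in jejunum and 109 in duodenum, close to the median of that set.

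None of the 11 sulfotransferases passed in any comparison. Chst5, an intestinal N-acetylglucosamine 6-sulfotransferase, averaged 267 ± 63.1 in colon, 267 ± 145 in ileum, 279.6 ± 67.3 in jejunum and 349 ± 229 in duodenum with wide overlap. Chst15, which acts on chondroitin sulfate, averaged 304 ± 25.5 in colon, 222 ± 40 in ileum, 245 ± 37.1 in jejunum and 180.1 ± 16.2 in duodenum, and all its colon pools lay above the other 9 with an adjusted p of 0.21. Chst1, which sulfates keratan chains, averaged 137 ± 21.4 in colon, 50.5 ± 20.4 in ileum, 92.5 ± 17.4 in jejunum and 70.6 ± 18.2 in duodenum, likewise without overlap and with an adjusted p of 0.141. Chst7, which acts on chondroitin and N-acetylglucosamine, was the brightest on its representing probe set and had 362, 138 and 149.7 in the colon pools, 274, 152 and 284 in ileum, 566, 312 and 310.4 in jejunum and 227, 376 and 411 in duodenum. Its segments overlapped, with an adjusted p of 0.482 for any difference.

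Along the small intestine, few of these genes differed. On the representing probe sets no gene passed in jejunum against duodenum, where 6 had an unadjusted p below 0.05, beside 0.639% of all genes called higher and 0.858% called lower. In ileum against jejunum 4 genes were higher (2.46% of all genes) and 1 was lower (2.02%), and with arrays centred on their median the split was 2 higher and 1 lower. St6galnac6 was higher in ileum by 2.04 ± 0.33 (SE, adjusted p = 0.00333) and Galnt4 by 1.14 ± 0.27 (SE, adjusted p = 0.0354), beside B4galt1 and B4galt4 above, and Galnt10 was the lower one with -0.94 ± 0.21 (SE, adjusted p = 0.0239). In ileum against duodenum St6galnac6 was higher by 1.80 ± 0.33 (SE, adjusted p = 0.00789) and Galnt10 lower with -0.95 ± 0.21 (SE, adjusted p = 0.0253), beside 1.43% and 1.55% of all genes. On brighter or second probe sets St6galnac6 passed in both comparisons, while Galnt10 passed in neither (adjusted p = 0.732 against jejunum and 0.705 against duodenum on its brightest). The second probe set of Galnt4 did not pass in ileum against jejunum, with 0.46 ± 0.27 (SE, adjusted p = 0.517). The pools behind these values stand above, and the comparisons share the ileal samples.

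Ileum 1 and 3 and jejunum 2 and 3 were the samples with low 18S signal, and the part of that signal in these ileal calls could be measured only with few pools. Among the 8 samples with high signal, with 1 ileal and 1 jejunal pool, no gene was called in ileum against jejunum, and the difference was 1.34 for St6galnac6, 0.27 for Galnt4, 1.46 for B4galt1, 0.55 for B4galt4 and -0.88 for Galnt10. With the 18S class as a block the ileum minus duodenum differences were 1.42 for St6galnac6 (adjusted p = 0.0833) and -1.0 for Galnt10 (adjusted p = 0.0709). Calls of ileum against jejunum also ended when single ileal or jejunal pools were left out. Without jejunum replicate 3 the adjusted p was 0.162 for Galnt4, 0.106 for B4galt1, 0.0541 for B4galt4 and 0.0899 for Galnt10, and without ileum replicate 3 it was 0.167 for Galnt4, 0.0553 for B4galt1, 0.0857 for B4galt4 and 0.092 for Galnt10. Without ileum replicate 1 the adjusted p was 0.108 for Galnt4, 0.0713 for B4galt4 and 0.0701 for Galnt10, and without jejunum replicate 2 it was 0.114 for Galnt4, 0.0938 for B4galt1 and 0.0618 for Galnt10. It was 0.0676 for B4galt1 without ileum replicate 2, and for Galnt4 0.0558 without colon replicate 1 and 0.0514 without duodenum replicate 3. The ileum minus duodenum call of Galnt10 ended without any 1 ileal pool, duodenum 1 or duodenum 3, with adjusted p of 0.0599 to 0.136.

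At the step to the colon, 5 genes were higher in colon than in ileum (2.49% of all genes) and 1 was lower (2.74%). St6galnac6 was higher by 3.51 ± 0.33 (SE, adjusted p = 6.61e-06), and St3gal3, whose ileal pools lay near the lowest signals, by 2.17 ± 0.28 (SE, adjusted p = 0.000174). Galnt4 was higher by 1.18 ± 0.27 (SE, adjusted p = 0.0247), and St6gal1, Galnt10 and B4galt5 have their values above. The second probe set of Galnt4 did not pass in colon against ileum (0.41, adjusted p = 0.635). Fut2 (1.38, adjusted p = 0.0505) and St3gal6 (1.05, adjusted p = 0.0597) missed the threshold. The call of Galnt4 ended without colon replicate 1 (adjusted p = 0.0905), colon replicate 3 (0.15), ileum replicate 1 (0.0689) or ileum replicate 2 (0.106), and that of St6gal1 without colon replicate 1 (0.059) or 3 (0.0803). Among the 8 samples with high 18S signal the adjusted p was 0.0548 for B4galt5, 0.0612 for Galnt10 and 0.0557 for St6gal1.

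The choice of probe set mattered for several genes. The 36 genes with more than 1 probe set had 62 further ones. The 12 genes called in colon against small intestine that had others held 18 of these, of which 15 had the same sign as the representing probe set and 3 were called in the same direction. Counting any probe set, 16 genes were called there, 14 higher and 2 lower. St6galnac6, St6gal1 and St3gal1 were called higher in colon on 2 probe sets each. With the brightest probe set of each gene over all 3 array sets 8 genes were called in colon against small intestine, and with the lower middle one of all its probe sets 6 were.

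**Figure D3:**
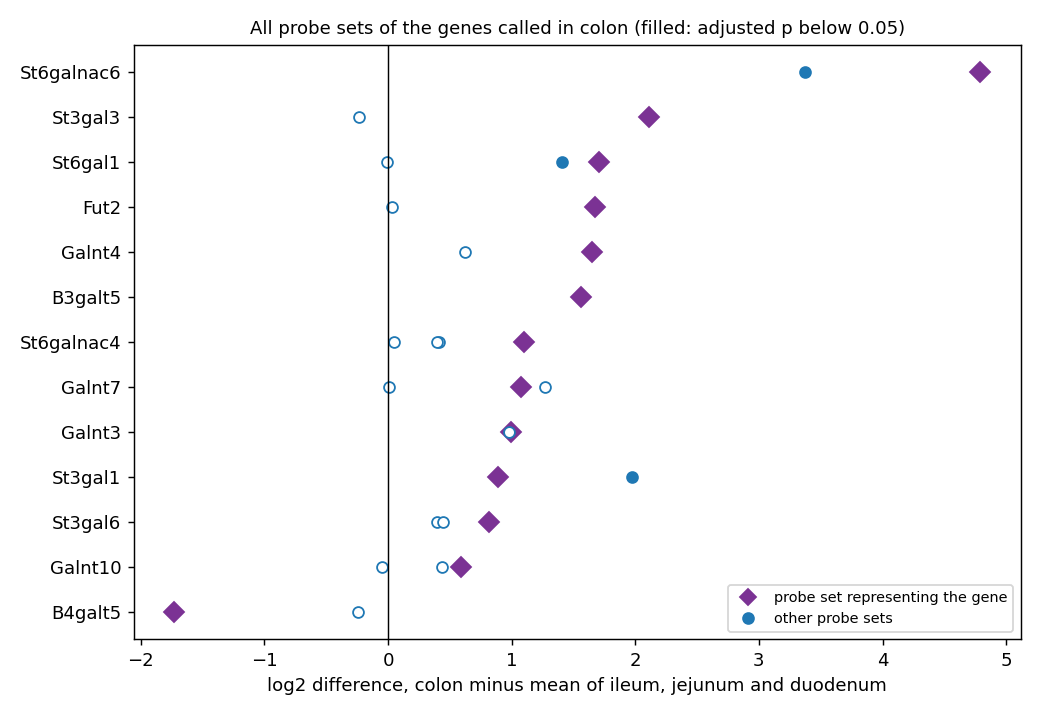
Difference of log2(intensity + 16) between colon and the mean of ileum, jejunum and duodenum for all probe sets of the 13 genes called in that comparison, with diamonds for the representing probe set and circles for the others, filled where the adjusted p was below 0.05. The circle of St6galnac6 at 3.38 and that of St3gal1 at 1.98 are filled, and those of St3gal3 at -0.24 and Fut2 at 0.03 are open.

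Genes that supply activated sialic acid were also higher in colon. Of 5 genes that make and import CMP-sialic acid, 4 were higher in colon than in the small intestine and none was lower, beside the 6.92% of all genes given above. Gne, the first and rate-limiting enzyme of the pathway, had 1583, 1389 and 1395 in the colon pools, 382, 405 and 344 in ileum, 351, 349 and 358 in jejunum and 419.7, 314 and 367 in duodenum. The colon pools stood well above a nearly level small intestine, with a difference of 1.95 ± 0.12 (SE, adjusted p = 3.96e-08). Slc35a1, which carries CMP-sialic acid into the Golgi, had 498, 412 and 594 in the colon pools, 104, 92.6 and 127 in ileum, 45.9, 32 and 22.4 in jejunum and 89.3, 62 and 107 in duodenum and a difference of 2.60 ± 0.22 (SE, adjusted p = 1.06e-06). Nans, the sialic acid synthase, averaged 1877 ± 333 in colon, 936 ± 146 in ileum, 480.3 ± 100.3 in jejunum and 528 ± 85 in duodenum, a difference of 1.57 ± 0.16 (SE, adjusted p = 6.95e-06). Cmas, which activates sialic acid with CMP, averaged 1447 ± 226 in colon, 817 ± 234 in ileum, 486 ± 123 in jejunum and 840.0 ± 316 in duodenum, a difference of 1.07 ± 0.22 (SE, adjusted p = 0.00501). Nanp, the phosphatase before that step, averaged 202 ± 40.2 in colon, 114 ± 84.2 in ileum, 88.3 ± 32.4 in jejunum and 103 ± 47.7 in duodenum and did not pass (adjusted p = 0.243).

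**Figure D4:**
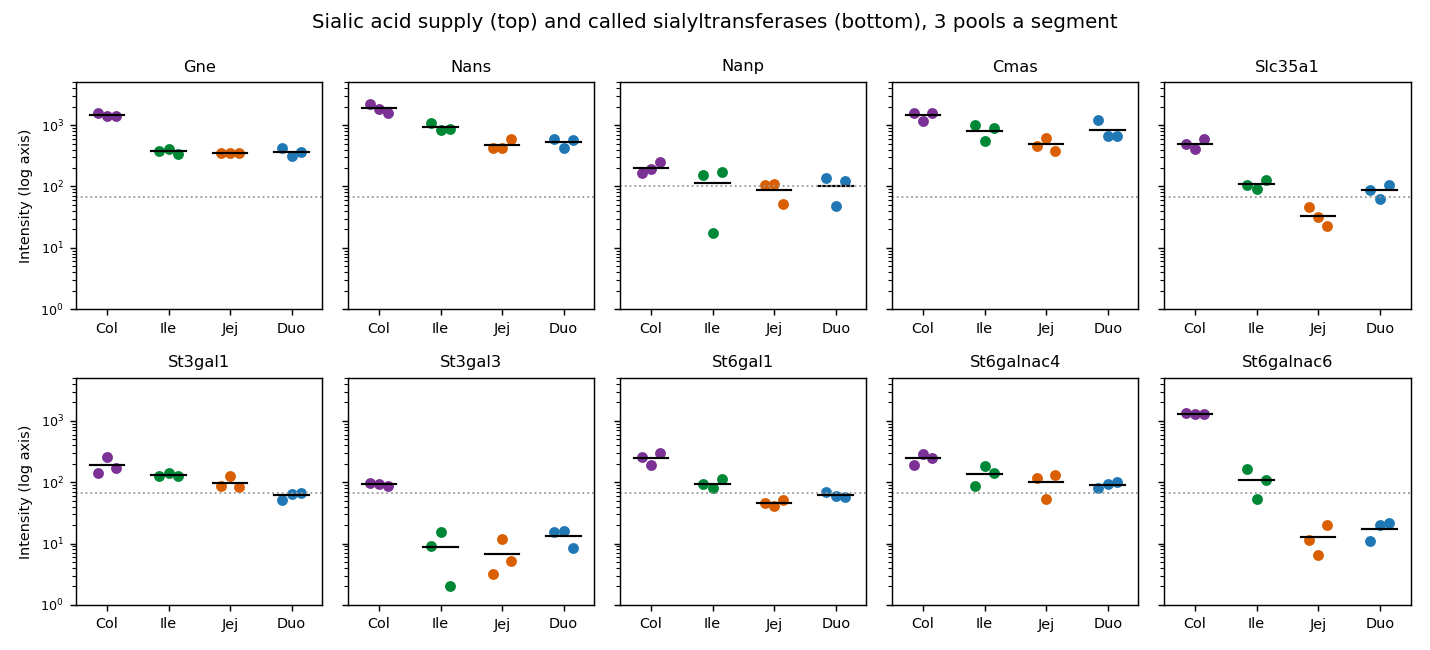
Intensity (log axis) in each of 3 pools of colon, ileum, jejunum and duodenum for the 5 genes of sialic acid supply (top) and 5 sialyltransferases that differed among the segments (bottom), with a bar at each mean and a dotted line at the array set's median. The colon pools of Gne lie at 1389 to 1583 and its small-intestinal pools at 314 to 420.

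Other donor routes were less uniform. The counts in colon against small intestine below stand beside 6.92% of all genes higher and 4.96% lower. Of 12 measured genes for UDP-sugars, 6 were higher in colon and 1 was lower. Gfpt1, the entry enzyme of the hexosamine pathway, averaged 8303 ± 1063 in colon, 3396 ± 1018 in ileum, 1435 ± 138 in jejunum and 1917 ± 440.1 in duodenum, a difference of 1.99 ± 0.19 (SE, adjusted p = 2.23e-06), and Uap1l1, a relative of the UDP-N-acetylglucosamine enzyme Uap1, was the lower one with means of 102 in colon, 419 in ileum, 1116 in jejunum and 569.5 in duodenum and -2.49 ± 0.26 (SE, adjusted p = 7.24e-06). Of 7 genes for sulfate and its activated donor PAPS, 3 were higher in colon. Papss2, a PAPS synthase, had 932, 1075 and 1409.7 in the colon pools, 264, 231 and 268 in ileum, 1302, 1198 and 614 in jejunum and 4089.8, 4513 and 5383 in duodenum, with duodenum far above and ileum below all other pools, and it was lower in jejunum than in duodenum by -2.21 ± 0.24 (SE, adjusted p = 0.000112). Papss1, the other PAPS synthase, averaged 1126 ± 152 in colon, 1332 ± 83.3 in ileum, 591 ± 138 in jejunum and 400.4 ± 41.9 in duodenum, highest in ileum, and was higher in ileum than in jejunum by 1.18 ± 0.18 (SE, adjusted p = 0.00217). Of 6 genes for fucose supply, 1 was higher and 1 lower in colon, and the lower one, Slc35c2, a Golgi transporter linked to fucose supply, averaged 202 ± 20.4 in colon, 356 ± 31.2 in ileum, 1119.6 ± 216 in jejunum and 647 ± 61.1 in duodenum with -1.58 ± 0.14 (SE, adjusted p = 1.94e-06). Of 19 other glycosyltransferases measured, 1 was higher and 1 lower in colon, and of 4 sialidases and fucosidases 2 were higher.

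The mucins and goblet cell products that carry or accompany these glycans also differed. Of 20 measured, 10 were higher and 3 lower in colon than in the small intestine, beside 6.92% and 4.96% of all genes. Muc2, the gel-forming mucin of the intestine, had 19972, 27637 and 18511 in the colon pools, 3036, 4608 and 4492 in ileum, 2710.5, 4682 and 4343 in jejunum and 1943, 2278 and 2527 in duodenum, with colon far above and a difference of 2.74 ± 0.20 (SE, adjusted p = 8.50e-08). Retnlb, a goblet cell product, averaged 23125 ± 5558 in colon, 4158 ± 362 in ileum, 1571 ± 279 in jejunum and 2304 ± 290.1 in duodenum, a difference of 3.20 ± 0.15 (SE, adjusted p = 1.46e-09). Agr2, the disulfide isomerase needed for Muc2 in mouse, averaged 5783 ± 922 in colon, 2197 ± 708 in ileum, 1089 ± 256 in jejunum and 2031 ± 502 in duodenum. Spdef, a transcription factor of goblet cells, averaged 769 ± 218 in colon, 243 ± 50 in ileum, 276 ± 95 in jejunum and 256 ± 39.5 in duodenum. Pdia5, another disulfide isomerase, averaged 329.8 ± 49.8 in colon, 148 ± 17.9 in ileum, 137 ± 8.47 in jejunum and 105 ± 28.6 in duodenum. All 3 were higher in colon, with adjusted p of 2.88e-05 for Agr2, 0.000247 for Spdef and 0.000256 for Pdia5. Tff3 and Zg16, also goblet cell products, were lower in colon. Tff3 averaged 8311 in colon, 18140 in ileum, 14970 in jejunum and 13524 in duodenum, a difference of -0.89 ± 0.15 (SE, adjusted p = 0.00121). Zg16 averaged 9040 in colon, 13292 in ileum, 12624 in jejunum and 11903 in duodenum, a difference of -0.47 ± 0.14 (SE, adjusted p = 0.0491). Muc1, a membrane mucin, was high at both ends, with 379 in colon, 76.6 in ileum, 51.5 in jejunum and 440.0 in duodenum, and Tff1 and Tff2, products of gastric and Brunner's glands, were high in duodenum, Tff1 with 415 in colon, 378 in ileum, 430.2 in jejunum and 3494 in duodenum and Tff2 with 52.5 in colon, 19.5 in ileum, 14.9 in jejunum and 18749 in duodenum. Tff2 was the remaining gene counted as lower in colon, with -2.09 ± 0.33 (SE, adjusted p = 0.000678). Its colon mean was above those of ileum and jejunum.

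Markers of several cell types differed between colon and small intestine beside the glycosylation genes, and their part in the results was not tested. No marker was at 0 in any pool. Among all genes, 6.92% were higher and 4.96% lower in colon than in the small intestine. Against duodenum, 0.858% of all genes were lower in jejunum and 1.55% in ileum. Of 9 goblet cell markers, 4 were higher and 2 lower in colon, and their summed intensity was 81660 to 117245 in colon, 61630 to 79293 in ileum, 57870 to 61425 in jejunum and 47643 to 58988 in duodenum. Of 9 enterocyte markers 8 were lower in colon, with sums of 6623 to 7256 in colon, 48618 to 71231 in ileum, 90256 to 106138 in jejunum and 89911 to 134899 in duodenum. All 8 smooth muscle markers were higher in colon, with sums of 27806 to 31834 in colon, 10140 to 12809 in ileum, 5774 to 8984 in jejunum and 5698 to 6919 in duodenum. All 8 measured pancreatic markers were lower in jejunum and in ileum than in duodenum, with sums of 936 to 2645 in colon, 796 to 1643 in ileum, 710 to 1199 in jejunum and 108201 to 112000 in duodenum. Of 7 measured T cell markers 3 were lower in colon, with sums of 181 to 321 in colon, 492 to 730 in ileum, 502 to 807 in jejunum and 844 to 1212 in duodenum, and of 6 macrophage markers 2 were, with sums of 894 to 1268 in colon, 2470 to 3711 in ileum, 1980 to 2446 in jejunum and 1944 to 2390 in duodenum.

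Genes outside the families with patterns most like those of the 6 glycosylation genes with the widest range were taken by Pearson's r over the 12 samples of the same array set, as a description, since all of them share the same libraries. For St6galnac6 these were Tat (r = 0.99), 2610528A11Rik (0.99) and Ceacam10 (0.98). For St3gal3 they were Cyp2d10 (0.97), Gabarapl1 (0.97) and Reep5 (0.97), and for St6gal1 Pdxdc1 (0.98), 1110059E24Rik (0.97) and Car8 (0.97). For Galnt4 they were Arglu1 (0.98), Ppp2cb (0.97) and Sfr1 (0.96). For B4galt5 they were Rdh9 (0.97), Clca4b (0.93) and Atpaf2 (0.92), and for B3gnt5 Nav2 (0.90), 9130024F11Rik (0.90) and Dpysl5 (0.85).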

How the data were processed

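Whole segments of mouse intestine were hybridised as total RNA, per the labels, in 3 pools of 10 mice for each of 4 segments on 3 array sets. The tables as deposited hold intensity, on a linear scale and already scaled by the authors, since the mean without the highest and lowest values was 200.05 to 200.19 in every table. The software is not given in the sources used here. Depth is limited by 12 arrays in each set. Log2(intensity + 16) was fitted with limma 3.58.1 in R 4.3.3 (lmFit, eBayes with an intensity trend) for each array set on all 36701 probe sets that are not controls. P-values were adjusted by the Benjamini-Hochberg method over the 3 sets together, and tests were 2-sided, with a gene called at an adjusted p below 0.05. The fitting was checked on simulated arrays in which 200 of 36701 probe sets were shifted in colon. A log2 difference of 1 was called for 9% against ileum and for 18% against all small intestine. A difference of 2 was called for 50% and 68%, and 6.35% and 6.52% of the calls were false. In the data, 1202 probe sets were called against ileum and 2778 against all small intestine, many more than the 200 shifted. The adjusted threshold depends on that number, so the simulated rates are not those of the data. A gene that did not pass may still differ. The labels tell pools of mice apart but not whether a number joins segments, so p-values measure the spread between pools. Deviations of same-numbered pools correlated between -0.36 and 0.36, and the number was not used as a block.

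Genes take 1 symbol from the array annotation, which 29131 probe sets have, while 724 have several and 6846 none. The genes described and the gene lists were chosen with earlier results of these data known. Pool values are given for genes called in the test of any difference, for the brightest gene of each family, and pool values or means for the called genes of the donor and mucin lists with the smallest adjusted p (up to 8 each), with Muc2, C1galt1 and C1galt1c1. Some genes were added after their values were seen. These were Galnt1, Galnt6, Galnt7, Chst1, Chst5, Chst15, Gcnt1, Gcnt2, Cmas, Nanp, Tff3, Zg16 and those that narrowly missed the test. The other probe sets were added in the same way. The array of duodenum 3 on set C has jejunum in its source name and was kept by its title. Its signal for the pancreatic marker Cpa1 was 13113, against 23863 and 14438 in the other duodenal pools and 26.6 to 41.9 in jejunum. For the gastric marker Gkn3 it was 21071, against 46645 and 29031 in the other duodenal pools and 46.3 to 172.7 in jejunum. Promoters came from RefSeq (GRCm38.p6), where 12 of 15 called genes had an entry. Alternatives covered the offset (1 or 64), scaling, a filter on dim probe sets, the variance trend, the 18S class, the replicate block, the probe set chosen, the segments in the fit, the array of duodenum 3 on set C and each sample left out.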

Additional observations from a re-analysis of the deposited data

How the results depend on the processing

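Of 26 differences named in single comparisons, 26 stayed called with an offset of 1, 25 with 64, 23 with quantile normalization, 24 with the replicate block, 22 without the variance trend, 20 with arrays centred on the median, 20 with a block for 18S class, and 11 when only the 8 samples of high 18S signal were used. With the probe set changed, 18 of the 26 stayed called on the upper middle one, 15 on the brightest and 12 on the lower middle one. Fitting only the 2 segments compared kept 6 of the 13 differences it covers. Leaving out 1 sample in turn gave 8 to 14 genes called for any difference (13 with all samples), 4 to 8 in colon against ileum (6), 7 to 13 in colon against small intestine (13), 1 to 2 in ileum against duodenum (2), 1 to 7 in ileum against jejunum (5) and 0 to 1 in jejunum against duodenum (0). Among the high 18S samples 8 genes were called for any difference, 1 in ileum against duodenum and 0 in ileum against jejunum. With the 18S block, 0 were called in ileum against duodenum, and with the replicate block 1 was; the labels do not say whether the numbers pair the pools, and the replicate block moved no other count by over 1.5 times. The lower middle probe set of each gene gave 5 for any difference, 2 in colon against ileum, 6 in colon against small intestine, 1 in ileum against duodenum and 3 in ileum against jejunum, and the upper middle one gave 1 in ileum against duodenum. The brightest probe set over all 3 array sets, an alternative chosen after seeing the data, gave 8 in colon against small intestine, 1 in ileum against duodenum and 3 in ileum against jejunum. In ileum against jejunum 3 were called with centred arrays and 3 without the trend. Fitting only the segments compared gave 0 there and 0 in ileum against duodenum, with fewer samples behind the spread. The filter on dim probe sets gave 1 in jejunum against duodenum. St3gal3 turned to -0.29 against ileum and to -0.24 against small intestine with both the lower middle and the brightest probe set, which is its dim one on array set B. Centring moved the median of all probe sets to -0.11 in ileum against jejunum, from 0.06, and to 0.07 in jejunum against duodenum, from -0.06. Apart from the changed probe sets and samples, the cause was not tested. Signal limits the dim genes: 23 of the 73 had no segment mean above the array median on the representing probe set, and 16 had none on any probe set. Without the array of duodenum 3 on set C, 12 genes were called for any difference.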
